A study of Mus musculus with 3 samples.

Results

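The Bcl2 family and Bag1 were followed across 3 expression arrays of LNC, a malignant murine B-1 cell line grown out of lymph node tissue of a New Zealand Black (NZB) mouse aged 1 yr. The members are 10 genes given by symbol: the anti-apoptotic Bcl2, Bcl2l1, Bcl2l2 and Mcl1, the effectors Bax and Bak1, the BH3-only genes Bcl2l11, Bid and Bad, and the co-chaperone gene Bag1. Every probe set that the platform annotation pairs with a member symbol was taken, which gave 16 of the 12588 probe sets that are not controls, for 9 of the 10 genes. No probe set was paired with Bax in that annotation, and Bax is not analysed here.

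All 3 groups are LNC cells, with 1 array per group. One group was given an IL-10 antisense oligonucleotide at 20 µM. Another was given a scrambled version at 20 µM to show what any oligonucleotide does, and the third no oligonucleotide. RNA was taken at 24 h, the time listed for each of the 3 groups. LNC is a single line, and how many cultures went into each array was not given in the sources used here. With 1 array per group no difference has a replicate check, no test was run, and each value below describes these arrays and not the conditions.

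Intensities are on a linear scale, brought to a common trimmed mean on each array. Values at or below a noise floor of 595.9 were set to it before log2 was taken, and a probe set was counted as past the filter when the floor was exceeded by at least 1 of its 3 values. A difference was counted when it reached 2-fold. Each difference was set beside the control spread, a description of how far the control arrays lie apart and not of replicate error. This is the 95th percentile of the absolute log2 difference between the scrambled and untreated arrays. It was taken over the 300 probe sets closest in mean level. The control spread includes any effect of the scrambled oligonucleotide. Where a control lay at the floor, the fold was taken from the floor itself and is written "at least". Each triplet of intensities runs in the order labelled antisense, scrambled, untreated.

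The proteins of this family decide whether the outer mitochondrial membrane is opened in apoptosis. Bax and Bak1 form the pores, the anti-apoptotic members bind and restrain them, and BH3-only proteins release that restraint or activate the effectors directly. Bag1 is a nucleotide exchange factor of the Hsc70 chaperone that was first found as a binding partner of Bcl2. In B cells Mcl1, Bcl2 and Bcl-xL support survival at different stages, and Bim, the product of Bcl2l11, removes cells whose survival signals are withdrawn.

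Il10, which the oligonucleotide targets, read 13946, 5616 and 5164, highest on the array labelled antisense, so each direction given below rests on that label. Leaving out the brightest, 6 bacterial spike-in controls were lower there, by mean log2 differences of -0.63 against untreated and -0.51 against scrambled. The 3-prime over 5-prime ratio of 18S ribosomal RNA was 8.13, 4.48 and 1.72 in the same order, while for actin and Gapdh it lay between 0.920 and 1.01. The part of these shifts in the member values was not tested. Of the B cell markers on the array, 4 of 5 genes passed the filter. Cd79a, Cd79b, Ms4a1 and Pax5 96993_at lay above the floor on each array. The other Pax5 probe set, 102578_at, and Cd22 did so on none. The summed intensity of the list was 74884, 103963 and 100081. Of the B-1 marker probe sets, 6 of 18 passed the filter, and these were of Ighm and above the floor on each array. The other Ighm probe sets lay at or below it on each, as did Cd5 and Spn, the other markers of that list. The summed markers ranged from 1349 to 2719 for T cells, with 1 of 5 genes past the filter, from 1910.1 to 3528 for myeloid cells, with 3 of 5, and from 1219 to 1512 for stromal cells, with 1 of 4. The part of other cell types in the member values was not tested.

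Among the member probe sets above the floor on each array, that of Bag1 had the highest difference from both controls. Its probe set 101032_at read 3909, 1454 and 1275. The controls lay close together, with a log2 difference of 0.19, and the array labelled antisense stood above both of them. The log2 difference was 1.62 against untreated and 1.43 against scrambled, beyond the control spread of 0.86 at this level. Among the 6127 probe sets past the filter this was the 30th highest difference from untreated and the 57th highest from scrambled.

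Bcl2, the founding member and anti-apoptotic, was read by 3 probe sets built on a shared GenBank record, so they are not independent readings. Probe set 98869_g_at, the only Bcl2 probe set above the floor on the 3 arrays, read 4423, 2868 and 2770.0. Against untreated the log2 difference was 0.68 and against scrambled 0.63, with a control spread of 0.66, so only that against untreated lay slightly beyond the spread. Probe set 98868_at read 1311, 667 and 443, which is at least 2.20-fold over untreated and 1.96-fold over scrambled. The log2 difference of 0.97 from scrambled lay within the control spread of 1.21, whereas that from untreated is a lower bound of 1.14 and became 1.57 with the floor at 1 robust standard deviation. Probe set 98870_at read 1165, -671 and -363, at least 1.96-fold higher than either. This bound is 0.97 on the log2 scale, beside a control spread of 0.98, and with the floor at 1 robust standard deviation it became 1.97 against each control. That probe set passed the filter through the array labelled antisense alone and had to be higher there. Probe sets 98869_g_at and 98868_at thus read highest on the same array, without being independent readings. How far the dimmer pair, 98868_at and 98870_at, stood from the controls depends on the floor.

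Bcl2l1, which encodes Bcl-xL in its long form, read 3256, 1972 and 1282 in probe set 99027_at. The scrambled array stood between the others, with a log2 difference of 0.62 from untreated. The array labelled antisense differed by 1.34 from untreated, beyond the control spread of 0.82, and by 0.72 from scrambled, within it. Its second probe set, 99026_at, read -1.7, -732 and -312 and was at or below the floor on each array. The arrays here do not separate the long anti-apoptotic from the short pro-apoptotic splice form of this gene.

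Mcl1, a short-lived protein that restrains Bak1 and Bim, was at similar values on the 3 arrays. Probe set 93093_at read 11255, 10989 and 11617. The log2 differences were -0.05 against untreated and 0.03 against scrambled, with a control spread of 0.35 at this brighter level. Bcl2l2, which encodes Bcl-w, was at or below the floor in its probe set 101373_at, at -196, -528 and -407, so no fold is given.

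**Figure D1:**
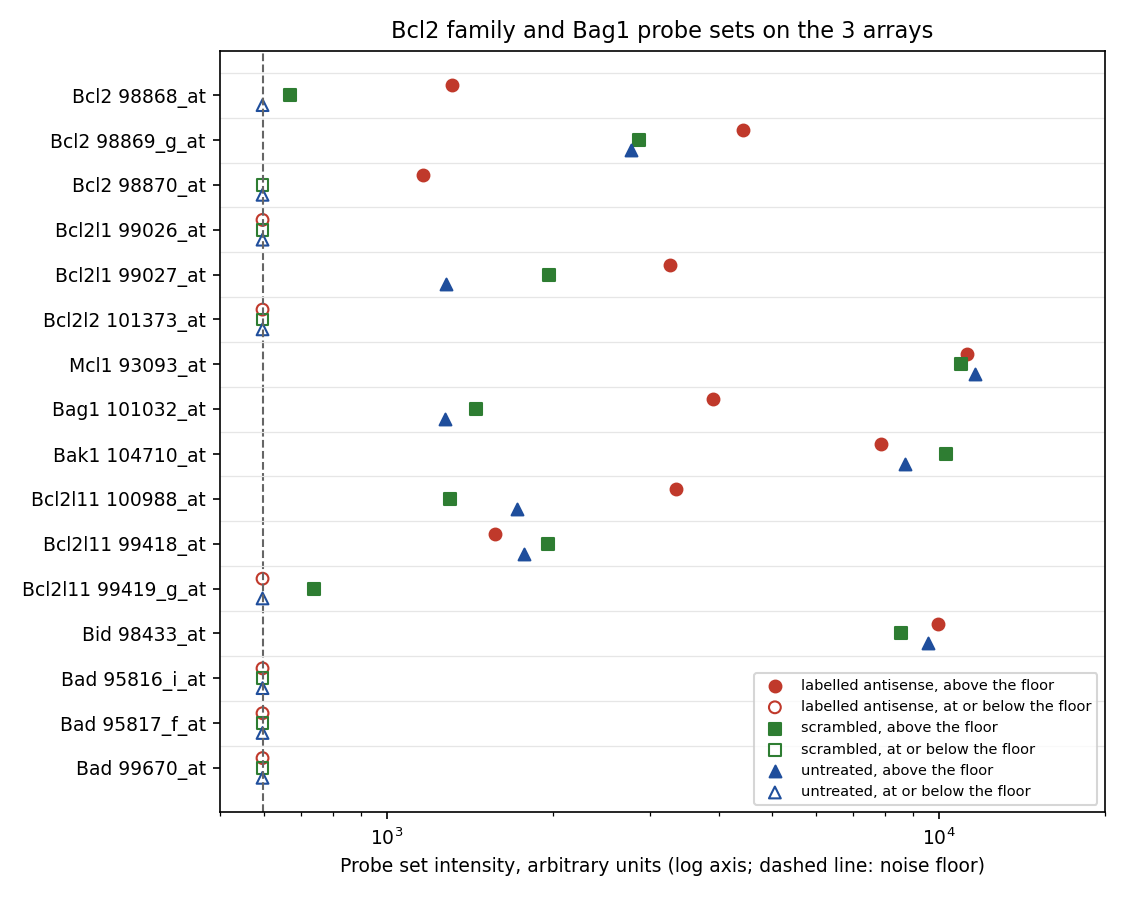
Intensity of each of the 16 probe sets (rows, by gene and probe set) on the array labelled antisense (red circles), the scrambled array (green squares) and the untreated array (blue triangles), on a log axis; open symbols at the dashed line are values at or below the noise floor of 595.9. Bag1, the 3 Bcl2 probe sets, Bcl2l1 99027_at and Bcl2l11 100988_at read highest on the array labelled antisense, while the symbols of Mcl1 and Bid lie close together.

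The windows upstream of the RefSeq starts of Bag1 and Bcl2 are shown. Probe sets of both genes read highest on the array labelled antisense, and each gene has 1 start in the RefSeq promoter table of build GRCm38.p6. With 98870_at entered at its bound, no Bcl2 probe set lay beyond the control spread against scrambled. Both windows lie on the minus strand and are written 5′ to 3′, ending at the base before the start. Capitals mark matches on either strand to the GC box GGGCGG and to the cyclic AMP response half-site TGACGT.
Bag1, chr4:40948295-40948544: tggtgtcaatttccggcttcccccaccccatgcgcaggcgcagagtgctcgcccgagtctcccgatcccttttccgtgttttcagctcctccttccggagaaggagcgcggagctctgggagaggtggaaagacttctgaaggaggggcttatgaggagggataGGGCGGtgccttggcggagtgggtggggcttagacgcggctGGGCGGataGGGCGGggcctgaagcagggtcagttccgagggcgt
Bcl2, chr1:106714291-106714540: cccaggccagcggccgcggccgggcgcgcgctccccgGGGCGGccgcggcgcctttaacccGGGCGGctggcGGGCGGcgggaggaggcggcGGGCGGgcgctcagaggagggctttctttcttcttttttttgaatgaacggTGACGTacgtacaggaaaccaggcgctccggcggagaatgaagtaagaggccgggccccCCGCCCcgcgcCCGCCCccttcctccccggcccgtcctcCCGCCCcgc

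The Bcl2 window held 7 GC boxes and 1 TGACGT, and the Bag1 window held 3 GC boxes. The Bid window, a Bad window and a Bcl2l11 window also held 3 each. The other Bcl2l11 window and the Bax window held 2 each, and the Mcl1 and Bcl2l2 windows held 1 each. The Bak1 window and the other Bad window held no GC box. Bid and Mcl1 lay within the control spread, and Bad and Bcl2l2 lay at or below the floor. Only 1 of the Bcl2l11 probe sets lay beyond the spread and higher against both controls. Bak1 was slightly beyond it and lower against scrambled, and within it against untreated. All 10 member genes, Bax among them, had windows in the table, 14 in all, and 9 of these held a GC box, which 32.7% of all 32851 windows of 250 bases in the table do. TTCNNNGAA, the spacing bound by Stat3, which carries the IL-10 signal, was in none of the 14 windows, against 7.02% of all windows. TGACGT was in the Bcl2 window only, against 6.47%. CCAAT was in 3 of the 14, against 33.9%, CACGTG in 1, against 6.02%, and TATAAA in none, against 12.4%. The 3 Bcl2l1 windows held none of these motifs. In the windows shown, no match overlapped another. These matches describe letters in these windows and not bound sites.

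Bak1, the measured effector, was lower on the antisense-labelled array than on the scrambled array. Probe set 104710_at read 7869.8, 10307 and 8706. The scrambled array stood above the other two. The log2 difference was -0.39 against scrambled, slightly beyond the control spread of 0.37, and -0.15 against untreated, within it. When the spike-in controls set the scale, these turned to 0.12 and 0.48, both below the shift of all probe sets in that scaling, whose median was 0.46 against scrambled and 0.57 against untreated.

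The 3 probe sets of Bcl2l11 went different ways. Probe set 100988_at read 3343, 1303 and 1721. Its log2 differences of 0.96 against untreated and 1.36 against scrambled lay beyond the control spread of 0.85, and that against scrambled was the 68th highest of the 6127. Probe set 99418_at read 1571, 1962 and 1774, lowest on the array labelled antisense, with differences of -0.18 and -0.32 within a control spread of 1.02. Probe set 99419_g_at read -239.9, 739 and 571, so only the scrambled array was above the floor, at least 1.24-fold. The last 2 probe sets are built on the same GenBank record and the first on a different one. The direction for Bcl2l11 therefore depends on the probe set, and when the spike-in controls set the scale 99418_at turned to 0.46 and 0.19, below the shift of all probe sets.

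Bid, whose product joins death receptor signals to mitochondria after cleavage, read 9972, 8543 and 9578 in probe set 98433_at. The differences of 0.06 against untreated and 0.22 against scrambled lay within the control spread of 0.37. Bad, which is held inactive by phosphorylation and 14-3-3 binding, was at or below the floor in its 3 probe sets on each array. Its brightest probe set, 99670_at, read 328, 430.5 and 237, and 95816_i_at and 95817_f_at, whose suffixes mark reduced or family probe sets, read from -366 to 264.

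Of the 16 member probe sets, 11 passed the filter and 5 did not, and 8 exceeded the floor on all 3 arrays. Against untreated, 3 reached 2-fold and were higher, those of Bag1, Bcl2l1 99027_at and Bcl2 98868_at, where 2.64% of the 6127 probe sets past the filter were. Against scrambled, 2 did so, Bag1 and Bcl2l11 100988_at, where 3.2% of all were. No member was at least 2-fold lower in either comparison, where 2.2% and 2.82% of all were. With the floor used here, Bag1 alone was at least 2-fold higher than both controls, where 1.35% of all probe sets were, and none was that much lower, where 1.06% were. Between the scrambled and untreated arrays no member was 2-fold apart, where 1.7% were higher and 1.4% lower. Both comparisons share the array labelled antisense, and the filter lets a probe set pass through a high value on that array.

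With differences against the floor entered at their bound, 4 member probe sets stood beyond the control spread and higher than untreated and 0 lower, where 4.88% and 4.08% of all were. Against scrambled, 2 were higher and 1 was lower, where 5.37% and 5.75% were. Bag1 and Bcl2l11 100988_at were beyond the spread and higher against both controls, where 2.76% of all were, and no member was beyond it and lower than both, where 2.5% were. By any amount, 7 of the 11 exceeded both controls and 2 fell short of both, where 37.2% and 32% of all were. The 7 include the 3 Bcl2 probe sets, which are not independent readings. Of these, 1 passed the filter through the array labelled antisense alone and had to be higher there. Among the 8 members above the floor on the 3 arrays, 5 exceeded both controls and 2 fell short of both. Of all 4539 such probe sets, 1700 and 1653 did so. The median of the 8 probe sets above the floor on the 3 arrays was 0.37 in the comparison with untreated and 0.42 in that with scrambled, and that of all 4539 such probe sets 0.01 and 0.00. Over the 16 without a filter, the medians were 0.00 and 0.02, as for all probe sets at 0.00.

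**Figure D2:**
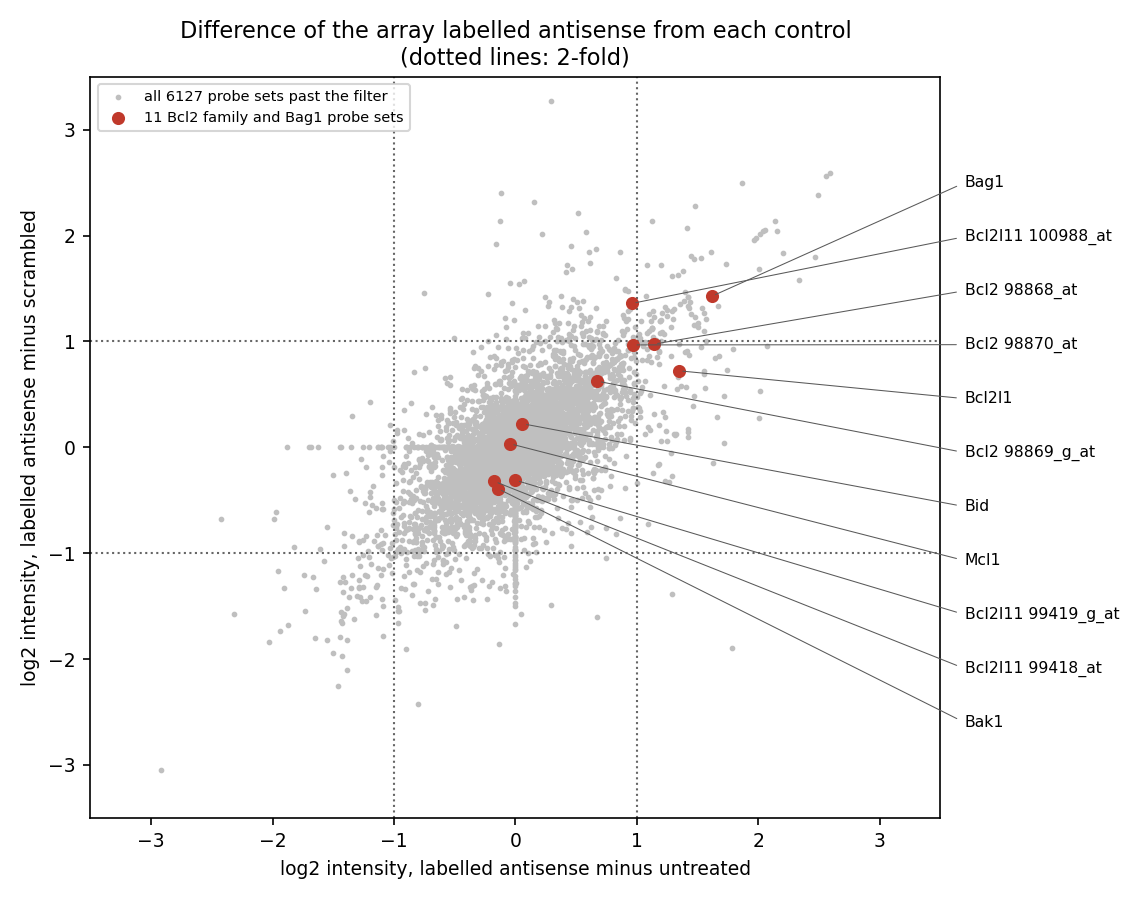
Log2 difference of the array labelled antisense from untreated (horizontal) and from scrambled (vertical) for the 6127 probe sets past the filter (grey) and the 11 member probe sets among them (red, named at the right); dotted lines mark 2-fold. Bag1 lies past 2-fold on both axes at 1.62 and 1.43, and Bak1 lies lowest of the members on the vertical axis at -0.39.

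**Figure D3:**
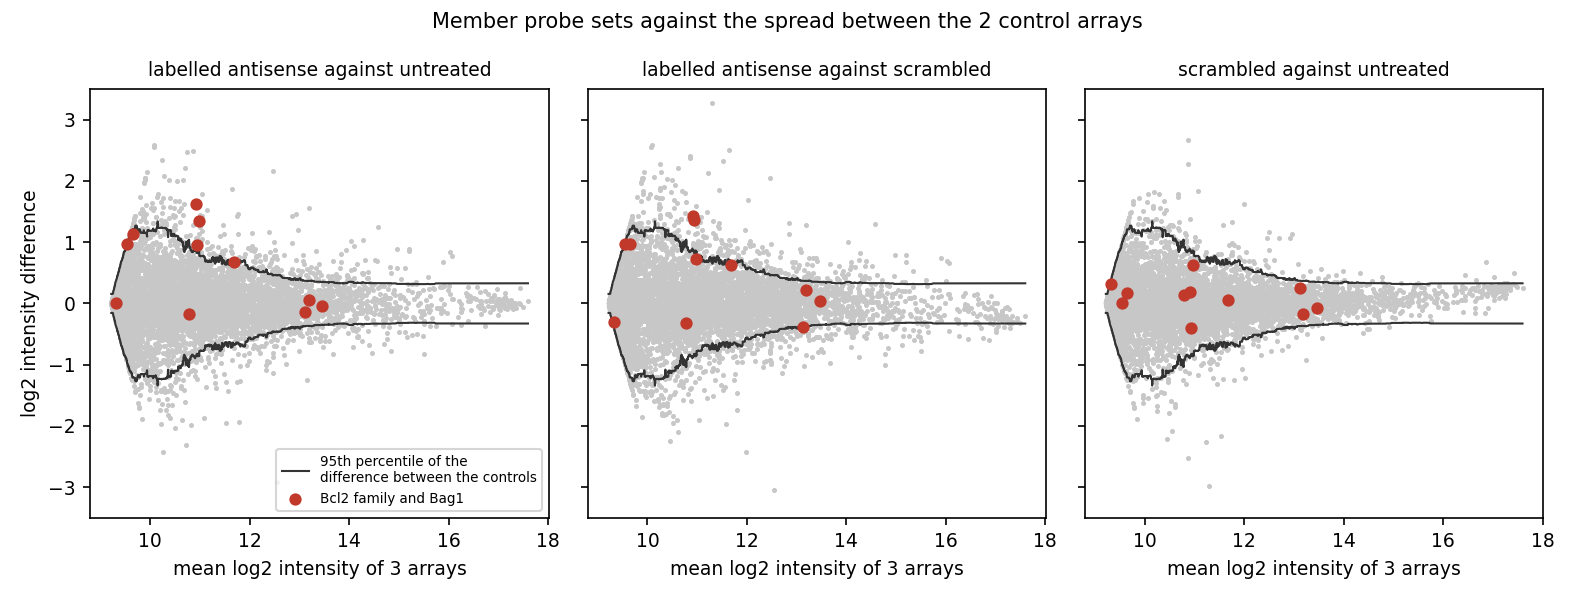
Log2 difference against mean log2 intensity of the 3 arrays for all probe sets past the filter (grey) and the members (red), in a panel for each comparison; black lines are the control spread above and below 0. Bag1 at 1.62 and 1.43 and Bcl2l11 100988_at at 0.96 and 1.36 lie outside the lines in the first 2 panels, and the members lie inside them in the panel of the controls.

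Changes of members relative to Bak1 on the same array are the same under any single scaling factor per array, and they were computed for the 7 other probe sets above the floor on the 3 arrays. Bak1 itself differed by -0.15 against untreated, -0.39 against scrambled and 0.24 between the controls. Its own differences therefore enter each of these changes, and no control spread was computed for them. Relative to Bak1, Bag1 stood 1.76 higher on the log2 scale against untreated, 1.82 higher against scrambled, and at -0.05 between the controls. Bcl2l1 differed by 1.49 and 1.11 relative to Bak1, with 0.38 between the controls. Bcl2 98869_g_at differed by 0.82 and 1.01, with -0.19 between the controls. Mcl1, at 0.10 and 0.42, and Bid, at 0.20 and 0.61, were less far from Bak1 against untreated than against scrambled, and the controls themselves differed by -0.32 for Mcl1 and -0.41 for Bid. Bcl2l11 differed by 1.10 and 1.75 in 100988_at, with -0.64 between the controls, and by -0.03 and 0.07 in 99418_at, with -0.10 between them.

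The mean log2 value of the 3 anti-apoptotic probe sets (Bcl2 98869_g_at, Bcl2l1 and Mcl1) minus that of the 4 pro-apoptotic ones (Bak1, Bid and the Bcl2l11 pair) of the array labelled antisense exceeded that of the untreated array by 0.48 and that of the scrambled array by 0.24. The scrambled array was itself 0.24 above the untreated array. Leaving out each of the 7 probe sets in turn moved the difference from untreated between 0.14, without Bcl2l1 99027_at, and 0.84, without Mcl1. That from scrambled moved between 0.04, without Bak1, and 0.62, without Bcl2l11 100988_at. The size of this balance therefore depends on single probe sets.

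The other genes of the pathway were taken as 4 lists. Of 19 further Bcl2 relatives, 8 genes were on the array and 6 passed the filter in 6 probe sets. None of these was 2-fold apart or beyond the control spread against either control. Of all probe sets, 2.64% were 2-fold higher and 2.2% lower against untreated, and 3.2% and 2.82% against scrambled. Beyond the spread were 4.88% and 4.08% against untreated, and 5.37% and 5.75% against scrambled. The medians of the 6 probe sets were 0.06 against untreated and -0.04 against scrambled. Bnip2, a binding partner of Bcl2, lay farthest from the mean control value among them, at 1178, 1249 and 1613, within its control spread of 1.20. Bcl2l13, a mitochondrial relative, differed by 0.07 and 0.18, Bnip1 by 0.05 and 0.11, and Bcl2l10 by 0.13 and -0.09.

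The list of the Bag family and partners of Hsc70 had 12 of 16 genes on the array, and 16 of its 23 probe sets passed the filter. By any amount 4 of these read higher than both controls and 9 read lower, where 37.2% and 32% of all did. None was 2-fold higher, and 1 was 2-fold lower in each comparison, where 2.2% of all were against untreated and 2.82% against scrambled. These were Hspa4 100352_at against untreated and Hspa4 92571_at against scrambled. Their medians were -0.09 against untreated and -0.21 against scrambled. Hspa8, which encodes Hsc70, the chaperone that Bag1 acts on, read 29367, 39422 and 43111. Its differences of -0.55 and -0.42 lay beyond the control spread of 0.32, and they turned to 0.08 and 0.09 with scaling to the spike-in controls, below the shift of all probe sets. Hspa4, an Hsp110 chaperone and exchange factor of Hsc70, read 4297 against 8759 and 8541 in 92571_at, with differences of -0.99 and -1.03 beyond the control spread of 0.42. A second Hspa4 probe set, 100352_at, read 586, 800.3 and 1365, at least 2.29-fold lower than untreated, and others differed by 0.07 and 0.16 in 96594_at and by -0.70 and 0.00 in 100353_g_at. Hsph1, a relative of Hspa4, went the other way, at 11323 against 8274 and 8635, with differences of 0.39 and 0.45 and a control spread of 0.37. Bag6 differed by -0.18 and -0.58 in 93922_g_at, the latter beyond its control spread of 0.51, and by 0.19 and 0.37 in 101854_r_at, within 0.38. It differed by 0.28 and -0.11 in 93912_at and by 0.03 and -0.16 in 93921_at, within their spreads. Bag3 was above the floor only on the array labelled antisense in 99227_f_at, at 879.9, 541 and 444, and on no array in 96167_at. Bag2 was at or below the floor in its 3 probe sets.

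The list of mitochondrial apoptosis downstream of the family had 15 of 18 genes on the array, and 11 of its 22 probe sets passed the filter. Their median was -0.10 against untreated and 0.02 against scrambled. None was 2-fold apart. Of all probe sets past the filter, 2.64% were 2-fold higher and 2.2% lower against untreated, and 3.2% and 2.82% against scrambled. Birc2, an inhibitor of apoptosis, read 4676, 2928 and 2945, with differences of 0.67 and 0.68 slightly beyond the control spread of 0.64. Apaf1, the scaffold of the apoptosome, differed by 0.33 and 0.27, within its spread of 0.68. Cycs, which encodes cytochrome c, was at similar values, at 2823, 2806 and 2897. Slc25a4, an adenine nucleotide carrier of the inner mitochondrial membrane, differed by -0.47 and -0.25, the former beyond its spread of 0.35. With scaling to the spike-in controls it differed by 0.16 and 0.27, both below the shift of all probe sets in that scaling. Slc25a5, its relative, differed by 0.44 and 0.64 in 100619_r_at, within a spread of 1.21, and by -0.10 and -0.04 in the brighter 100617_at.

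In the list of kinases and phosphatases of Bad and of 14-3-3 proteins, 15 of 19 genes were on the array and 17 of 19 probe sets passed the filter. The medians were -0.11 and -0.03, and the 3 probe sets at least 2-fold higher than both controls were those of Pim1 and Pim2, kinases that phosphorylate Bad, where 1.35% of all probe sets were. They differed by 1.55 and 1.27 for Pim1 104533_at, by 2.20 and 1.84 for Pim1 99384_at, and by 2.16 and 2.04 for Pim2. Pim3, a kinase of the same family, differed by -0.70 and 0.02, within its control spread of 1.23. Akt1, another kinase of Bad, differed by -0.23 and -0.36, within its spread of 0.71. Ywhae, a 14-3-3 protein gene, read 3986 against 5395 and 6264. Its differences were -0.65 against untreated, beyond its spread of 0.51, and -0.44 against scrambled, within it. With scaling to the spike-in controls they were -0.02 and 0.08, both below the shift of all probe sets in that scaling.

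**Figure D4:**
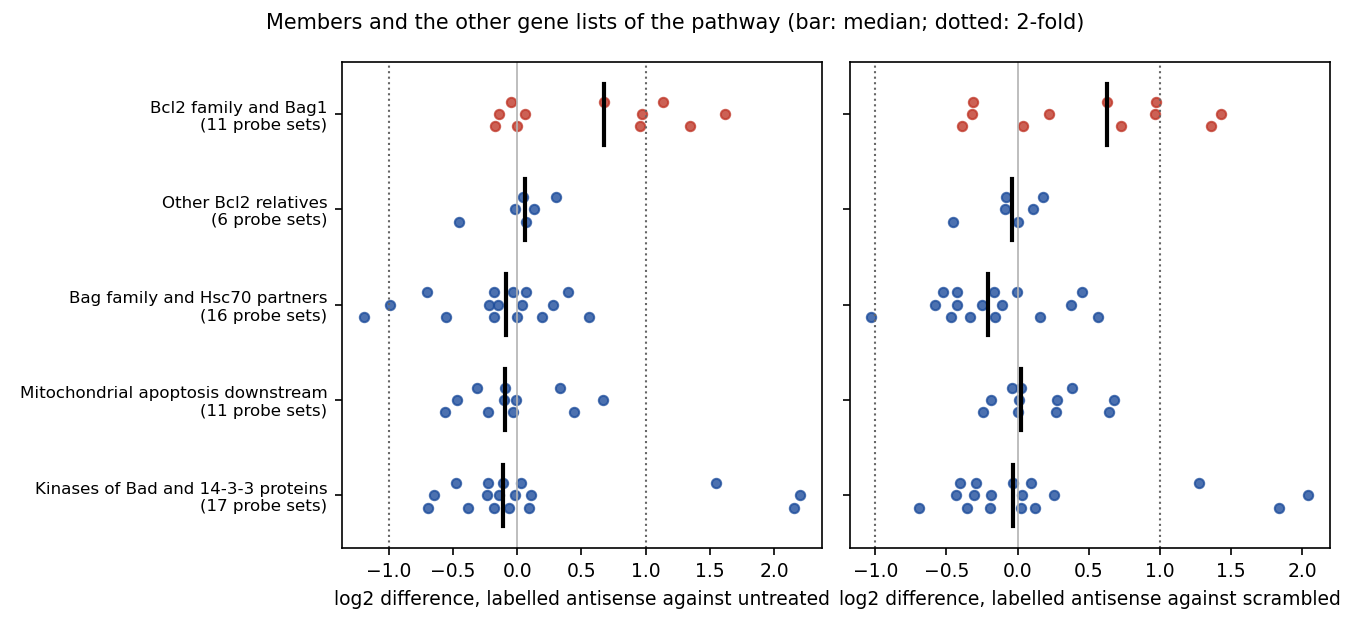
Log2 difference from untreated (left) and from scrambled (right) of each probe set past the filter for the members (red) and the 4 other lists (blue); black bars are medians and dotted lines mark 2-fold. The member medians stand at 0.68 and 0.63, of 11 probe sets that include 1 that passed only through the array labelled antisense, and those of the other lists lie between -0.21 and 0.06.

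The probe sets most alike Bag1 in the pair of differences from the controls were sought among 3960 others with a single symbol and above the floor on the 3 arrays. By Euclidean distance on the log2 scale over these 3 arrays, the 5 nearest were those of Cdkn1a, a cell-cycle inhibitor, at 0.10, Pim1 104533_at at 0.17, Nfatc1, a calcium-regulated transcription factor, at 0.18, Il10 at 0.22 and Adgrd1, an adhesion receptor gene, at 0.22. Bcl2l11 100988_at came second to Bag1 by the smaller of its differences from the controls, among member probe sets above the floor on each array. Its nearest were Nfkbie, an inhibitor of NF-kB, at 0.06, Gm7775 at 0.12, Traf2, a signalling adaptor of TNF receptors, at 0.14, Wdr92 at 0.15 and Pdrg1 at 0.17. With 3 arrays such likeness rests on 2 numbers per probe set that share an array.

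**Figure D5:**
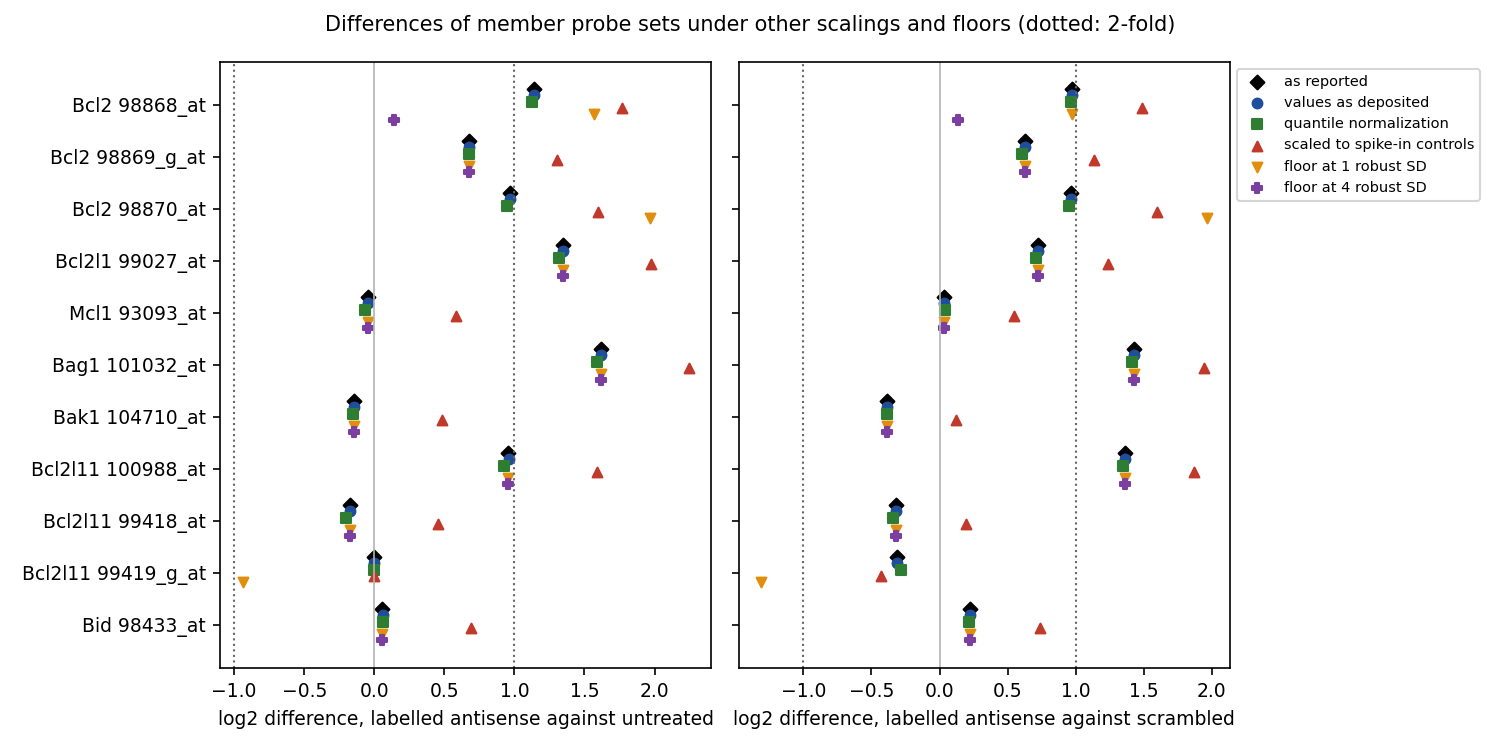
Log2 difference of each member probe set past the filter from untreated (left) and from scrambled (right) as reported (black) and under 3 other scalings and 2 other floors (colours and symbols in the key); dotted lines mark 2-fold. Scaling to the spike-in controls moves the values right, Bag1 to 2.25 and 1.94, except for Bcl2l11 99419_g_at, which stays at 0.00 and moves left to -0.43, while the floor moves the dim Bcl2 98868_at, Bcl2 98870_at and Bcl2l11 99419_g_at.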

How the data were processed

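The deposited intensity values are linear and cover 12654 probe sets, 66 of them controls, on 3 arrays. The mean after removing 2% from each end is 1500 on each array, so the authors had scaled them; between 24.8% and 27.9% of values are at or below 0. The software was not given in the sources used here. Each array was scaled to a common 2% trimmed mean over probe sets that are not controls. The floor of 595.9 is 2 robust standard deviations of the values below 0. Symbols came from the platform annotation (1 symbol for 10298 probe sets, several for 363, and 1949 probe sets other than controls not listed), updated through gene identifiers, 10279 of which matched RefSeq. Some probe sets of this early array version are known to rest on faulty sequence and were not identified here. Some list members are named by rule: those 2-fold from both controls, and in each list the 4 or fewer that lay farthest from the mean control value. A few further probe sets of these genes, and Cycs, Akt1, Pim3, Bag2 and Bag3, were named after their values were seen. Members and lists were chosen with earlier results of these data known. Leaving probe sets out of the balance was added after seeing the data. Counting was checked on simulated data. The probe sets changed there were brighter than each member counted at 2-fold, so counting at the level of those members was not checked. Python 3.11.15 with pandas 2.3.3 was used.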

Additional observations from a re-analysis of the deposited data

How the results depend on the processing

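The counts of member probe sets at least 2-fold apart were recomputed under 9 alternatives. Against untreated, the count of 3 became 6 with scaling to the spike-in controls and stayed between 2 and 4 otherwise. Against scrambled, the count of 2 became 6 with scaling to the spike-in controls, 4 with the floor at 1 robust standard deviation (3 higher and 1 lower) and 1 with a mean value per gene, and was 2 otherwise. Between the controls it was 0 under each. Over the whole array, scaling to the spike-in controls gave 1117 higher and 54 lower against untreated, where 162 and 135 were counted, and 874 and 96 against scrambled, where 196 and 173 were. The floor changed these totals too, to 390 and 379 against untreated at 1 robust standard deviation and to 60 and 35 at 4. Of 159 differences of single member probe sets recomputed, 149 moved by less than the control spread, 10 moved further and 0 with a 2-fold difference changed sign. The floor at 4 robust standard deviations left Bcl2 98868_at at 0.14 against each control and gave no value for Bcl2 98870_at. No paired analysis was possible because each group has 1 array. The number of arrays and the floor limit every value of a dim probe set.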

Other observations

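Genes whose symbols begin with Bcl but which are no relatives of Bcl2 were read as well, since many of them were named for breakpoints in B cell lymphoma. There were 7 such probe sets for 7 genes, and 5 passed the filter. They were listed by symbol after the member values had been seen. Bcl3, an IkB-like regulator of NF-kB in the nucleus, read 358 on the array labelled antisense, 1002 with the scrambled oligonucleotide and 1748 untreated. It was at least 2.93-fold lower than untreated, beyond the control spread of 1.19 on the log2 scale, and at least 1.68-fold lower than scrambled, a bound set by the floor. The scrambled array stood between the others, with a log2 difference of -0.80 from untreated. Bcl10, an adaptor that carries antigen receptor signals to NF-kB, read 2724, 3890 and 3072 in the same order, with differences of -0.17 and -0.51 within its control spread of 0.71. Bcl6, a repressor of germinal centre B cells, did not exceed the floor on any of the 3 arrays. Bcl7c and Bcl6b lay within their control spreads against both controls. Bcl7b differed by 0.52 from untreated, within its spread of 1.07, and was at least 1.75-fold higher than scrambled.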
